A study of Mus musculus with 55 samples.

Results

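The Peg3 imprinted region of mouse liver was measured by 2 bisulfite assays between shortly before birth (embryonic age E18.5) and adulthood. Reduced representation bisulfite sequencing (RRBS) reads CpGs next to the cut sites of MspI across the genome, and locus-specific bisulfite sequencing (LSBS) reads amplicons of chosen regions. The RRBS members were all cytosines of CpGs in the mm9 table from 5 kb upstream of the Peg3 start site to the gene end, which came to 14 of 271325 cytosines. The LSBS members were the 11 CpGs of the amplicon labelled Peg3 Intragenic/Usp29 Promoter, of 166 CpGs in 17 loci.

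Per the labels, all samples were whole livers of C57BL/6 mice (C57BL/6J in the methods of the study) kept under standard conditions, with no treatment or transgene named. RRBS covered 5 livers at E18.5, 9 at postnatal day 1 (P1) and 10 at 9 weeks (9wk). LSBS covered 31 livers, namely 5 at E18.5, 5 at P1, 4 at P5, 4 at P10, 3 at P15, 5 at P20 and 5 at 6 months (6mo). The 9wk group joins 7 libraries of an earlier deposit and 3 of a later one. The P1 RRBS titles begin with the prefix 6Mo, which the labels do not explain, and those libraries were taken as P1 from their age label. The LSBS titles give 16 females and 15 males. The RRBS labels give no sex, and the methods of the study state that the 9wk RRBS mice were male and that the first RRBS mice ate a chow with coconut oil fat. Values are the percentage of reads methylated at a CpG. The paper reports mean coverage, but the read depth behind each single value is not given beyond the stated minimum, so no counting interval was given. In a whole organ, a change in the mixture of cells and a change of methylation within cells cannot be told apart, and the tissue label was not checked against RNA markers.

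Peg3 encodes a zinc finger protein and is expressed from the paternal allele. A differentially methylated region over its first exon and first intron is methylated on the maternal allele and unmethylated on the paternal one, so a level near 50% is the textbook state of a tissue that keeps the imprint. Usp29, a ubiquitin protease gene, starts close by in the opposite direction and shares this control region, whose first intron carries a cluster of motifs for the zinc finger protein YY1. In the text, near 50% means a group mean from 40 to 60%.

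Peg3 lies on the minus strand at chr7:6656603-6683132 (mm9), with 9 exons and a start codon in exon 3. The searched window, chr7:6656603-6688132, holds 434 CpG dinucleotides and 20 CCGG sites. The RRBS cytosines fell in only 2 stretches of it. One lay in untranslated exon 1, 93 to 159 bp downstream of the start site, with 8 cytosines of 5 dinucleotides (4 on the plus and 4 on the minus strand). The other lay in the coding part of exon 9, 18811 to 18954 bp downstream, with 6 cytosines. No RRBS cytosine lay upstream of the start site. The LSBS amplicon spanned 137 bp, chr7:6682916-6683052, with 2 CpGs in intron 1 and 9 in exon 1. The assays shared 5 dinucleotides, 4 of them at the same plus-strand position.

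The 5 dinucleotides read by both assays are shown first, each with its plus-strand context in mm9 and the CpG in capitals, because the comparison of assays rests on them. The last 2 lines show the intron 1 CpG whose LSBS level was lowest at every age and the exon 9 CpG with the highest RRBS mean at 9wk.
6682973: tgactcacctccCGgagcacagcac
6682990: cacagcactctaCGcacacaccccg
6683001: acgcacacacccCGaccagggtcgg
6683011: cccgaccagggtCGgcagtctagtg
6683038: cccacactgaacCGggcgcccggcg
6682916: gaactctgcagaCGgtatctaagag
6664185: tgaaccggaagcCGcccctaaatgc
The CpG at 6682973 is part of a CCGG site that starts at 6682972, and the one at 6683038 is part of a CCGG site that starts at 6683037. The 4 plus-strand cytosines of exon 1 therefore lie behind 1 cut site and the 4 minus-strand cytosines behind the other. Cytosines of the same strand can be read from the same molecules, so they are not independent measurements.

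The YY1 motif AANATGGCG was searched on both strands from 1 kb upstream to 4 kb downstream of the start site. It matched 10 times, all as AAGATGGCG on the plus strand of intron 1, 832 to 3120 bp downstream. Of 3053 gene windows of this length on chromosome 7, 8.45% held a match and 0.0328%, which is the Peg3 window alone, held as many. A pair of the matches is shown with the motif in capitals, the nearest to the start site and the farthest from it.
6682300: ccaccctccAAGATGGCGccaactggg
6680012: tggccaacaAAGATGGCGccaatgaag
None of them overlapped a measured CpG, so neither assay gave methylation values at the cluster itself.

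Exon 1 stayed near 50% in the RRBS means from E18.5 to 9wk, while exon 9 was highly methylated throughout. Averaged over its 8 cytosines, exon 1 was at 42.5% ± 3.55 (SD, n = 5) at E18.5, 43.4% ± 9.97 (n = 9) at P1 and 48.0% ± 9.74 (n = 9) at 9wk. Of the 8 cytosine means, 5 were near 50% at E18.5, 8 at P1 and 8 at 9wk, and the 3 below 40% at E18.5 were 38.6, 35.6 and 36.7%, all on the minus strand. The 6 cytosines of exon 9 averaged 86.6% ± 1.20 (n = 5), 89.7% ± 4.69 (n = 9) and 95.3% ± 2.39 (n = 9). None of their single values fell below 64.3%.

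**Figure D1:**
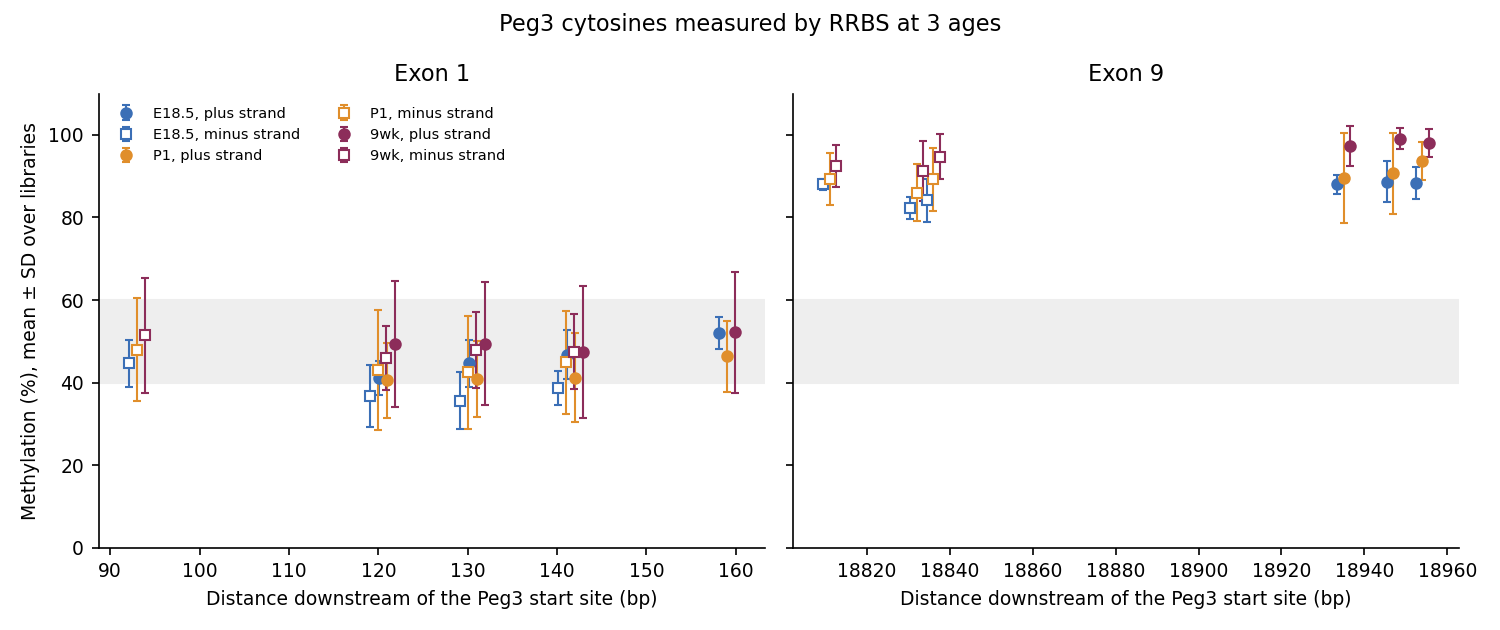
Methylation in percent (mean ± SD over libraries) against distance from the Peg3 start site in bp for the 14 RRBS cytosines, with exon 1 on the left and exon 9 on the right. Points of the 3 ages are moved slightly sideways, filled circles are plus-strand and open squares minus-strand cytosines, and the grey band runs from 40 to 60%. Exon 1 means lie between 35.6 and 52.2%, and exon 9 means between 82.3 and 99%.

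On the plus strand of exon 1, the 5 E18.5 libraries had means of 41.9, 42.7, 45.0, 48.9 and 52.4%. The 9 P1 libraries ran from 26.8 through a median of 41.1 to 56.9%. The 8 libraries at 9wk with values ran from 40 through a median of 43.8 to 84.6%. The 84.6% was 9wk replicate 9, of the later deposit, which had this same value at all 4 plus-strand cytosines, whereas the other 7 libraries lay between 40 and 51.8%. The same library had 55.0% on the minus strand and 96.0% in exon 9. Without it the 9wk plus-strand mean was 44.6% ± 5.12 (SD, n = 7) in place of 49.6% ± 14.9 (n = 8), and the mean of all exon 1 cytosines 45.3% ± 5.64 (n = 8).

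On the minus strand, the E18.5 libraries had means of 34.6, 36.9, 37.5, 37.9 and 47.7%. At P1 the libraries ran from 26 through a median of 43.3 to 62.5%, and at 9wk from 35.7 through a median of 46.9 to 66.7%. The groups overlapped on both strands. Within a library the plus-strand mean was higher than the minus-strand mean in 5 of 5 libraries at E18.5, 2 of 9 at P1 and 4 of 7 at 9wk, and the difference averaged 7.26, -2.34 and 1.68 points. All 4 cytosines of a strand had 1 shared value in 3 of 9 P1 libraries (minus strand) and, at 9wk, in 3 of 8 libraries on either strand. Missing values were limited to 9wk, where replicate 1 had no exon 1 values, replicate 7 lacked its minus strand and replicate 10 its plus strand and all of exon 9. Replicates 4 and 8 lacked the plus-strand cytosines of exon 9, at 6664178, 6664185 and 6664197.

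**Figure D2:**
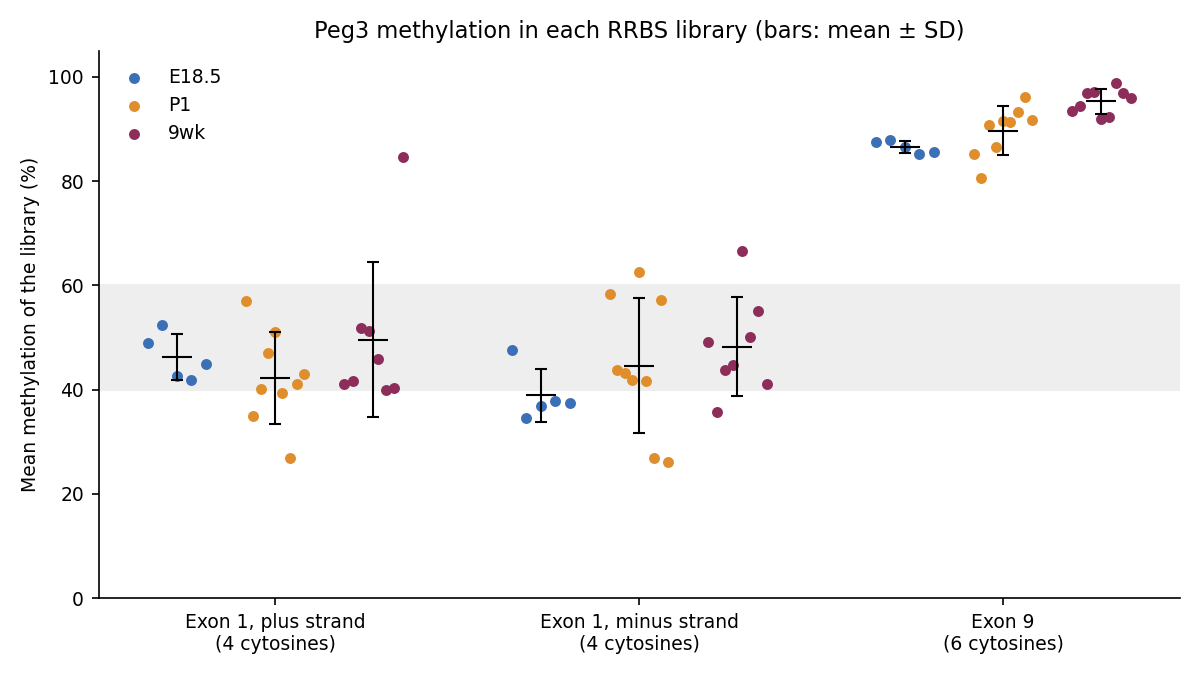
Mean methylation in percent of each RRBS library over the plus-strand cytosines of exon 1, its minus-strand cytosines and the cytosines of exon 9, by age, with bars for mean ± SD and a grey band from 40 to 60%. One 9wk library stands at 84.6% on the plus strand. Exon 9 library means run from 85.3 to 88.0% at E18.5 and from 91.9 to 98.8% at 9wk. The mean change of its cytosines was 8.88 points, beside a median of 9.68 points over all CpGs tested.

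The SD over RRBS libraries holds both differences between livers and counting error from limited reads, which were not separated. At exon 1 it was set beside that of CpGs chosen by an E18.5 mean from 40 to 60%. Of the 8 exon 1 cytosines, 5 were in that range at E18.5. At E18.5 the SD of the 8 cytosines ran from 3.91 to 7.43 points, and the median SD of all CpGs with an E18.5 mean from 40 to 60% was 6.90. At 9wk the 8 SDs ran from 7.73 to 16.0 against a median of 11.4 in the same set. Of that set 25% still had a 9wk mean in the range, so the 9wk median is mostly of CpGs at other levels. Of single exon 1 values, 60% lay from 40 to 60% at E18.5, 54.2% at P1 and 71.9% at 9wk.

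From E18.5 to 9wk, 8 of the 14 cytosines rose (limma, adjusted p up to 0.1 over all CpGs and a change over 5 points) and none fell, where 64.9% of all 249729 CpGs tested were called in either direction. With the 7 first-deposit libraries alone at 9wk, 7 were called and the mean change was 5.97 points. The mean change over the 14 was 7.45 points, and the median of all CpGs tested was 9.68 points. The 8 comprised 5 of 6 cytosines in exon 9 and 3 of 8 in exon 1. In exon 1 the 3 were minus-strand cytosines. The one at 6683002 rose from 35.6% ± 6.91 (n = 5) to 47.9% ± 9.20 (n = 8), with an adjusted p of 0.0303 by limma. The one at 6682991 rose from 38.6 to 47.5% (limma adjusted p = 0.0823) and the one at 6683012 from 36.7 to 46.0% (limma adjusted p = 0.0683). These are the 3 cytosines that were below 40% at E18.5, and they can be read from the same molecules.

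The 5 exon 1 cytosines that were near 50% at E18.5 were all near 50% at 9wk, and none of them was called. Of all 29409 CpGs tested with an E18.5 mean from 40 to 60%, 67.3% were called, the median change was 11.9 points and 25% had a 9wk mean still in that range. At 6682973 the means were 52.1% ± 3.91 (n = 5) and 52.2% ± 14.6 (n = 8), a difference of 0.15 points with a 95% interval from -12.7 to 13.0. At 6682990 the difference was 0.56 points, with an interval from -13.5 to 14.6. Both 9wk means include replicate 9, at 84.6% on each of these cytosines, which raises them and widens their SDs. The 9wk medians were 48.1% at 6682973 and 41.8% at 6682990, below the E18.5 means of 52.1 and 46.8%. The small differences of means thus depend on that 1 library. No interval of the 8 cytosines lay within 5 points of 0, and the half-widths ran from 8.91 to 14.1 points. A kept level was thus bounded only to that width.

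In exon 9 the gain at 6664185 went from E18.5 values of 81.6, 85.2, 90.9, 92.5 and 93.2% to 93.3% in 1 and 100% in 6 of the 7 libraries with values at 9wk. That was 88.7% ± 5.05 (n = 5) against 99% ± 2.52 (n = 7), with no overlap and a limma adjusted p of 0.00737. It was 1 of 2 cytosines whose age groups did not overlap, which 22.3% of all CpGs tested showed. At 6664296 the rise was from 84.1% ± 5.21 (n = 5) to 94.7% ± 5.43 (n = 9), the largest difference of the stretch at 10.6 points. At 6664321, with 88.0% against 92.4%, the difference of 4.40 points was not called (limma adjusted p = 0.189). No RRBS cytosine had a value in every 9wk library, so the rule that names the largest gains and losses among complete cytosines selected none.

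When each library was scaled to its mean over highly methylated CpGs, the median change of all CpGs moved from 9.68 to 0.52 points and the mean change of the 14 cytosines from 7.45 to -0.472. On this scale 30.7% of all CpGs tested were called and none of the 8 exon 1 cytosines was, their changes running from -6.30 to 7.35 points. The 1 call was at 6664321, which fell by 6.64 points with a limma adjusted p of 0.10. The sign of the change flipped under this scaling at all 6 cytosines of exon 9 and at 3 of the 4 plus-strand cytosines of exon 1. Exon 9 lies in the range over 80% that sets the scale, so changes near 0 there follow from how the scale is built and say nothing on the gains.

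**Figure D3:**
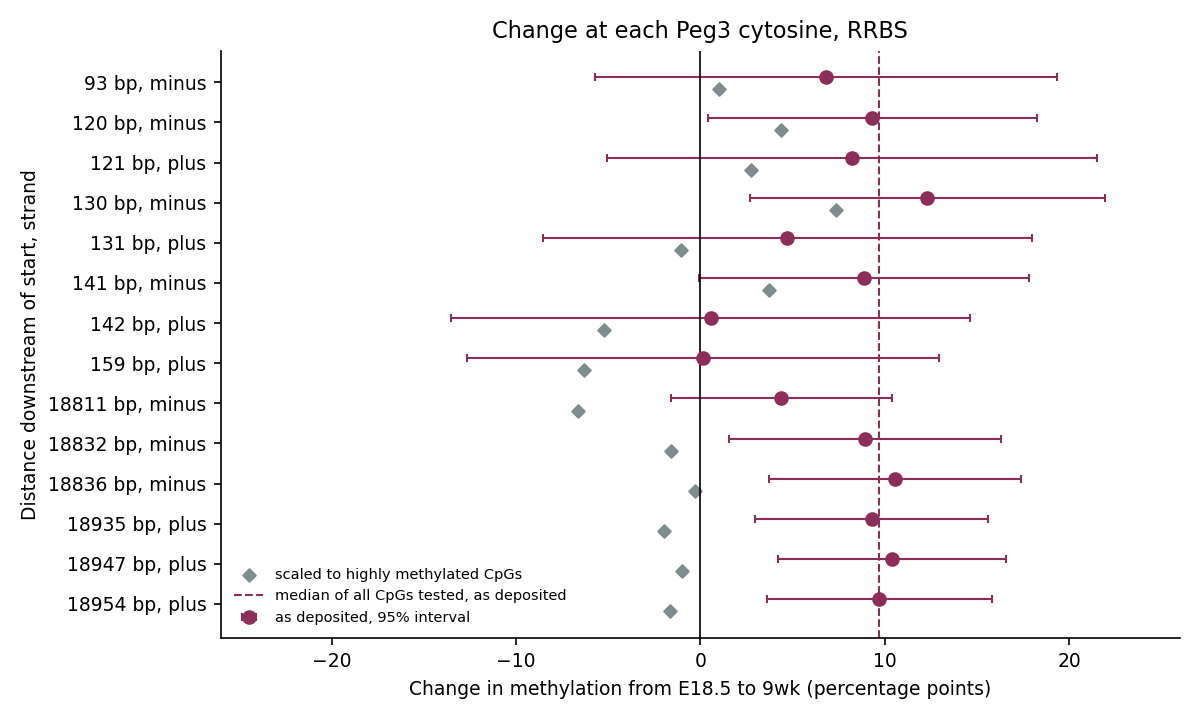
Change in methylation from E18.5 to 9wk in percentage points at each of the 14 cytosines, ordered by distance from the start site. Circles with bars are the deposited values with 95% intervals, diamonds the values after scaling to highly methylated CpGs, and the dashed line the median of all CpGs tested, 9.68 points. All circles are above 0, while diamonds in exon 9 lie between -6.64 and -0.32.

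From E18.5 to P1 none of the 14 cytosines was called by limma, with 0.552% of all CpGs called, and the mean change was 1.85 points. The plus-strand cytosines of exon 1 changed by -5.69 to -0.57 points and the minus-strand ones by 3.32 to 6.86. From P1 to 9wk 1 of 14 rose, with 43.1% of all CpGs called. It was 6664185 in exon 9, by 8.41 points (limma adjusted p = 0.0962), and the exon 1 differences ran from 2.57 to 8.78 points with adjusted p of at least 0.213.

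LSBS placed the same start-site region slightly above 50%. Its 11 CpGs lie in 1 amplicon and can be read from the same molecules, so counts over them are not independent. All 11 CpG means were near 50% at each of the 7 ages, and 326 of 341 single values (95.6%) lay from 40 to 60%. The other 15 values were above 60% and none was below 40%. The mean of the 11 CpG means was 50.5% at E18.5, 52.0% at P1, 53.0% at P5, 57.0% at P10, 54.7% at P15, 54.6% at P20 and 55.6% at 6mo. In order of level the ages ran E18.5, P1, P5, P20, P15, 6mo and P10. The SD between livers ran from 3.55 to 4.62 points at E18.5, from 0.71 to 3.56 points at P1 to P20 and from 5.55 to 7.05 points at 6mo.

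**Figure D4:**
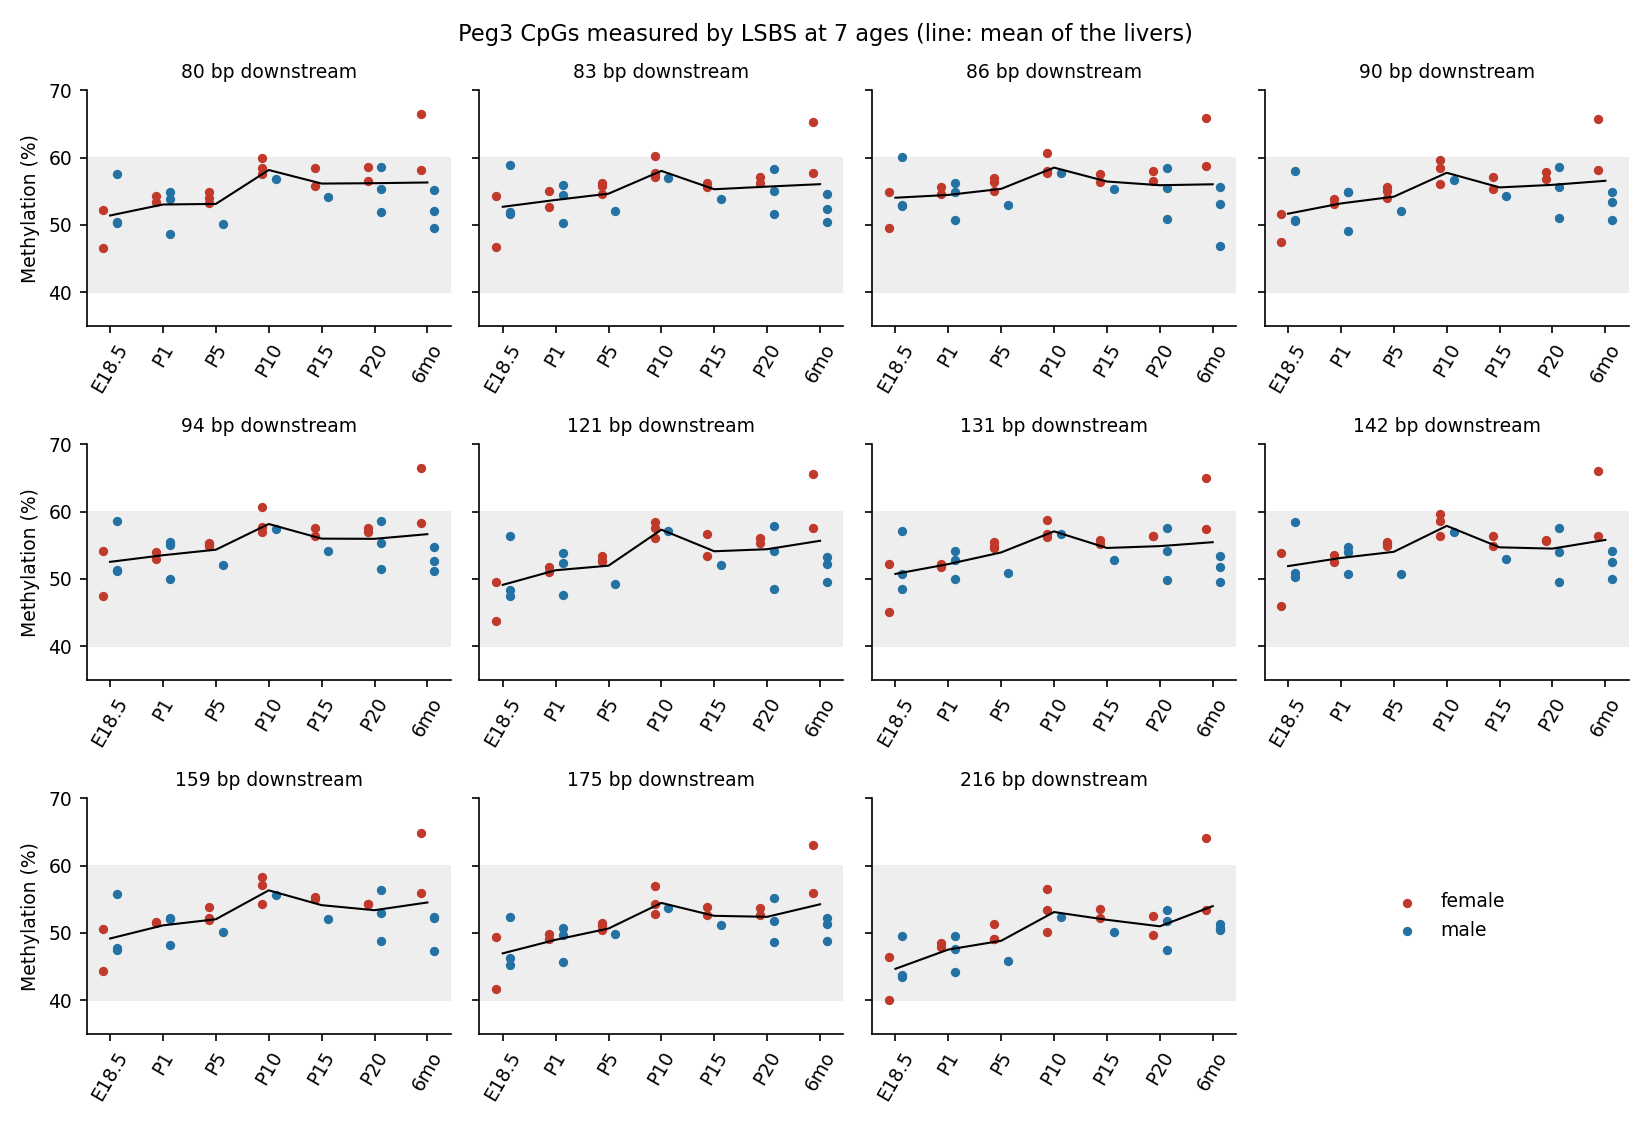
Methylation in percent of the 11 LSBS CpGs at 7 ages, 1 panel per CpG headed by its distance from the Peg3 start site, with a point per liver (red females, blue males), a line through the age means and a grey band from 40 to 60%. The vertical axis runs from 35 to 70%. Means are higher at each successive age up to P10 at all 11 CpGs, no step between neighbouring ages being called, and at 6mo 1 female value per CpG lies between 63.1 and 66.6%.

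The CpG at 6682916 in intron 1 had the lowest mean of the 11 at all 7 ages. Its E18.5 values were 40.1 and 46.4% in females and 43.5, 43.8 and 49.6% in males. At 6mo they were 53.4 and 64.1% in females and 50.4, 50.7 and 51.3% in males. No 6mo value overlapped the E18.5 range, which held for 34.3% of the 166 CpGs, and the rise from 44.7% ± 3.55 (n = 5) to 54.0% ± 5.79 (n = 5) was called (limma adjusted p = 0.000409). The means between were 47.5, 48.8, 53.1, 52.0 and 51.0% at P1, P5, P10, P15 and P20.

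The second intron 1 CpG, 6682957, was at 47.0, 49.0, 50.7, 54.5, 52.5, 52.4 and 54.3% over the 7 ages in order. It rose by 7.30 points from E18.5 to 6mo (limma adjusted p = 0.00323). The exon 1 CpGs started higher, at 49.1 to 54.1%. The difference between the highest and the lowest CpG mean was 9.39 points at E18.5, 5.42 at P10 and 2.67 at 6mo.

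Of the exon 1 CpGs also read by RRBS, 6682973 was at 49.2, 51.1, 52.0, 56.3, 54.1, 53.4 and 54.5% in age order, and 6682990 at 51.9, 53.1, 54.0, 57.9, 54.7, 54.5 and 55.8%. The means of 6683001 were 50.8, 52.2, 53.9, 57.1, 54.6, 54.9 and 55.5%. Those of 6683011 were 49.1, 51.3, 52.0, 57.3, 54.1, 54.4 and 55.7%. Each of them was lowest at E18.5 and highest at P10.

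The CpG at 6683038 had means of 52.5, 53.5, 54.4, 58.2, 56.0, 56.0 and 56.7%, and 6683042 had 51.7, 53.2, 54.2, 57.8, 55.6, 56.0 and 56.6%. At 6683046 the means were 54.1, 54.5, 55.4, 58.5, 56.5, 55.9 and 56.0%, the highest E18.5 start and the smallest difference to 6mo of the 11. At 6683049 they were 52.7, 53.7, 54.7, 58.0, 55.3, 55.7 and 56.1%, and at 6683052 51.4, 53.0, 53.1, 58.2, 56.2, 56.2 and 56.3%. Means were higher at each successive age from E18.5 through P1 and P5 to P10 at all 11 CpGs, though none of these steps was called, and P10 was the highest age at 10 of them, with 6682916 the exception. The 11 CpGs share an amplicon, so they are not separate observations of this order.

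From E18.5 to 6mo, 4 of the 11 CpGs rose (limma over all 166 LSBS CpGs, same thresholds) and none fell, where 31.9% of the 166 were called. Beside both intron 1 CpGs these were 6682973 by 5.36 points (limma adjusted p = 0.0655) and 6683011 by 6.56 points (limma adjusted p = 0.0270). The other 7 differed by 2.00 to 4.91 points. The mean change was 5.13 points, and 6682916 was the 1 CpG called by exact permutation (p = 0.00794, two-sided, which is the least that 5 livers against 5 can give), a test that called 30.1% of the 166. In males alone at all ages the mean change was 0.112 points with 1 CpG called, beside 30.1% of the 166. With the highest 6mo value of each CpG left out it was 2.69 points with 2 called, beside 30.7%.

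E18.5 was also set against the ages from P5 to P20, comparisons added after the data were seen. From E18.5 to P10, 10 of the 11 rose by 5.34 to 8.44 points, with 33.1% of all CpGs called and 6683046 the exception at 4.48 points (limma adjusted p = 0.185). The groups did not overlap at 2 of the 11, and at 33.1% of the 166. The exact permutation test called 7 of the 11 and 31.9% of the 166. Against E18.5, 0 of 11 were called at P1 (6.02% of all CpGs), 0 at P5 (9.04%), 2 at P15 (30.1%) and 3 at P20 (33.7%). No step between neighbouring ages was called at any of the 11 by limma. The background of all CpGs was 8.43% for P1 to P5, 20.5% for P5 to P10, 19.3% for P10 to P15, 22.9% for P15 to P20 and 3.01% for P20 to 6mo. The largest mean step was 3.97 points from P5 to P10, followed by -2.30 points from P10 to P15. From P20 to 6mo the mean difference was 1.00 points, and 4 of the 11 intervals lay within 5 points of 0. None did so from E18.5 to 6mo.

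At 6mo the values of 2 females lay above those of 3 males, while no CpG was called for sex over all ages. Male minus female over all ages ranged from -2.69 to -1.89 points, with 0 of 11 and 0% of the 166 CpGs called by limma, and 6 of the 166 at an unadjusted p up to 0.05. At 6mo females had a mean of 61.2% over the 11 CpGs and males 51.8%, females were higher at 11 of 11 with no overlap (24.7% of the 166 did not overlap), and 10 of 11 were called (7.23% of the 166, limma adjusted p from 0.0524). Females were also higher at 8 of 11 CpGs at P1 and at 11 of 11 at P5, P10, P15 and P20. The sexes did not overlap at 11 of 11 at P5 (47.6% of the 166), 2 at P10 (37.3%), 11 at P15 (75.9%) and 0 at P20, with 1 male each at P5, P10 and P15. At E18.5 the order was the other way, with females at 48.5% and males at 51.7%. The change from E18.5 to 6mo differed between the sexes by -14.0 to -10.4 points (male minus female), and this interaction was called at 7 of 11 CpGs, with 4.22% of the 166 called and all of those in Peg3 (limma adjusted p from 0.0918 to 0.220). The 6mo comparison and the interaction rest on 2 females and 3 males at an age. For the sexes at a single such age, an exact permutation test could not go below 0.10. The 11 CpGs share an amplicon and can be read from the same molecules, so the counts of CpGs are not independent. At all 11 CpGs the highest 6mo value was a female one, 63.1 to 66.6%, and the next, also female, was 53.4 to 58.7%. Without the highest value the interaction was called by limma at 0 of 11 and at 0% of the 166. The 6mo comparison of the sexes is given only with that value included.

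The assays were compared at E18.5 and P1, the ages with samples of both assays analysed here. At E18.5 LSBS was 7.88 to 15.1 points above RRBS at the 4 minus-strand cytosines, and LSBS minus RRBS ran from -2.91 to 7.99 points at the plus-strand ones. At 6682990 LSBS gave 51.9% ± 4.61 (n = 5) against 46.8% ± 5.90 (n = 5) on the plus and 38.6% ± 4.12 (n = 5) on the minus strand. At P1 LSBS was above RRBS at all 8, by 4.73 to 11.9 points. These offsets were not tested, and the paper reports no statistical difference between the assays at the CpGs it compared. The ranges of livers overlapped at 7 of 8 cytosines at E18.5, 6682991 being the exception, and at 8 of 8 at P1. The P1 spread was larger in RRBS, with SDs from 8.61 to 14.5 points against 1.54 to 2.33 points at the same CpGs in LSBS. The E18.5 titles of the assays share 3 numbers, and whether these are the same animals was not tested. The adult values used here are of different ages, 48.0% at 9wk by RRBS and 55.6% at 6mo by LSBS. The paper lists LSBS livers of 9 weeks, and 55 deposited LSBS values of Peg3 carry that age. Those values match no LSBS sample analysed here and were not used, so no same-age adult comparison was made. The 9wk RRBS mice were male per the methods, while at 6mo LSBS gave 51.8% in males and 61.2% in females.

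Among other genes of the Peg3 domain, 2 of 6 listed (Usp29 and Zim1) were found in the annotation. The annotated start of Usp29 lay outside the Peg3 window, and Usp29 had no RRBS cytosine by the same rule. Zim1, a zinc finger gene expressed from the maternal allele, had 12, which averaged 84.0% ± 2.63 (n = 5) at E18.5 and 94.3% at 9wk. Of these 8 rose and none fell from E18.5 to 9wk, where 64.9% of all CpGs tested were called.

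Of 28 other imprinted genes listed, 26 were in the annotation and 20 had RRBS cytosines within 1 kb of the start site. Their 201 distinct tested cytosines comprised 51 that rose and 3 that fell from E18.5 to 9wk, with a median change of 3.92 points, beside 9.68 points over all CpGs. That was 26.9% called, beside 64.9% of all CpGs tested, which is also the background for the gene counts below. Of the genes, 12 were near 50% at E18.5 in this window and 10 of them also at 9wk, with a median change of 1.64 points. These counts take Peg10 and Sgce, which share their cytosines, as separate genes. The window used for the Peg3 members runs from 5 kb upstream to the gene end. By it, 17 genes were near 50% at E18.5 and 11 of them also at 9wk, with a median change of 8.13 points. Gene windows share cytosines there too, 528 being distinct of 561. The same shares over all genes were not computed. At the start of Nap1l5, 17 of 17 cytosines rose, from 42.5% ± 2.84 to 67.4%. At Igf2r, the imprinted receptor gene, 10 of 13 rose, from 36.0 to 51.6%. Plagl1 had 1 rise and 2 falls among 37 tested, with means of 44.1 and 45.7%, and Peg10 and Sgce, which share their 12 cytosines, had none called, with means of 47.6 and 46.1%. With 3 of 8 called and a mean change of 6.37 points, the Peg3 start lay between these.

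**Figure D5:**
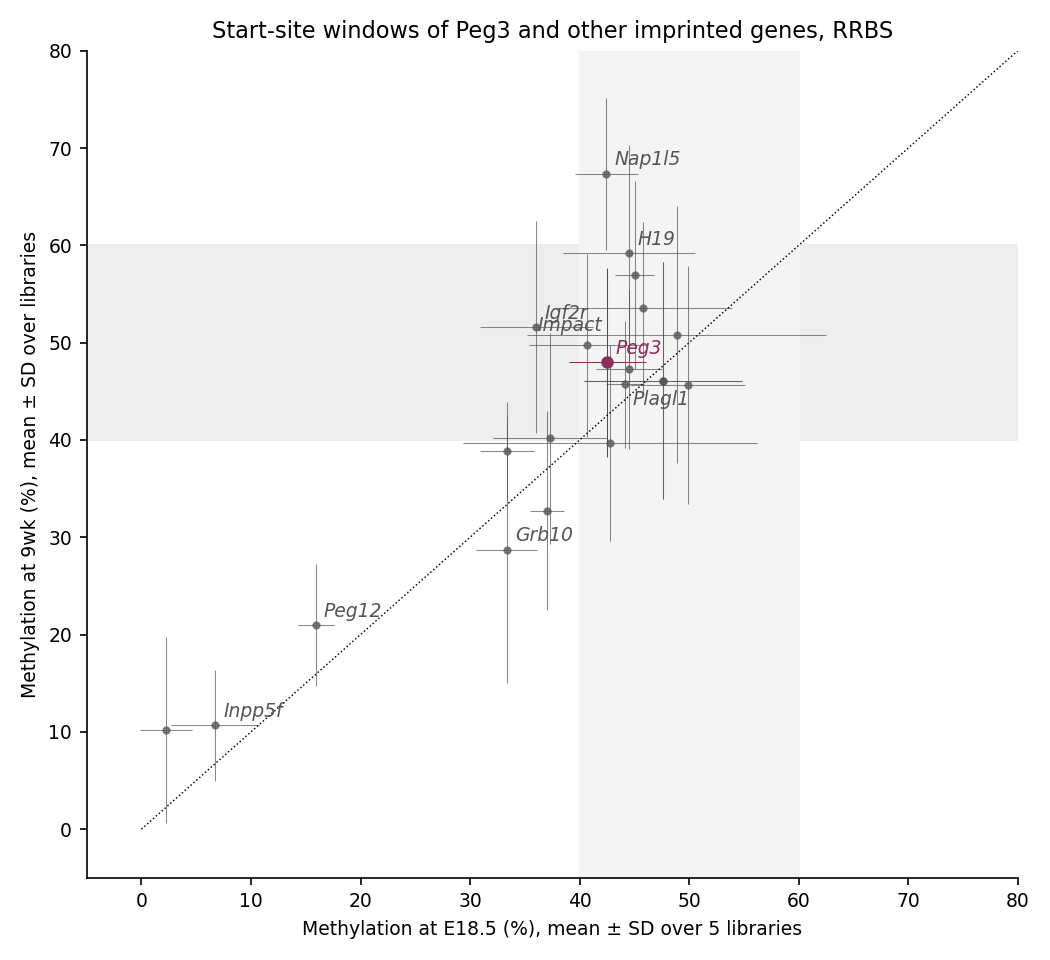
Mean methylation in percent at 9wk (vertical) against E18.5 (horizontal) within 1 kb of the start site for Peg3 and 20 other imprinted genes, with SD over libraries as bars, a dotted line of equal values and bands from 40 to 60%. Peg3 lies at 42.5 and 48.0%, Nap1l5 at 42.5 and 67.4%.

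By the full gene window, the 5 genes of 10972 closest to Peg3 over the 24 RRBS libraries were Lhx4, Lonrf2, Adamts1, Foxo1 and Mcm9, with root mean square differences from 5.87 to 6.75 points. This window mixes exon 1 and exon 9, and at 9wk some Peg3 means rest on 1 of them. A window within 1 kb of the start was chosen after the first result was seen. In it the closest of 1637 genes were Impact (7.55 points over 22 libraries) and Plagl1 (7.92 points over 23), both on the list of imprinted genes. Ydjc at 8.45, 1700021N21Rik at 8.91 and Serhl at 9.10 points followed closely and are not on that list. Among the LSBS loci the closest over the 7 age means was the Lep promoter at 13.1 points, with means from 62.9 to 70.1%, then the Nr1i3 promoter at 15.6 and the Sftpa1 promoter at 15.8. The age means of Peg3 spanned 6.54 points, those of Lep 7.20, of Nr1i3 40.3 and of Sftpa1 25.7.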

How the data were processed

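Per the methods of the study and the submitters' processing notes, reads were aligned to mm9 with Bismark 0.7.6 and Bowtie2. The authors deposited the fraction of methylated reads per CpG for each RRBS library and each LSBS value, with CpGs under a minimum coverage (10 reads in RRBS, 100 in LSBS) treated as missing, and RRBS CpGs under 10% in all samples removed. Fractions were multiplied by 100 here. Depth per value is not in these tables. The deposited p and q values of the locus table were not used, and LSBS values were placed by the age and sex columns of the table, which name no liver. Not used were 830 LSBS values, 55 of them in Peg3, whose given age is 9 weeks. The paper lists LSBS livers of that age, but no LSBS sample analysed here has it.

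Each RRBS comparison used the 2 ages named, CpGs with values in at least 80% of their libraries, and limma 3.58.1 (R 4.3.3) on percentages with Benjamini-Hochberg adjustment over all CpGs tested. LSBS used 1 limma fit over 7 ages. A CpG was called at adjusted p up to 0.1 with a difference over 5 points. Nothing in the labels says that livers came from separate litters. The p-values thus set a change against the spread between these samples, taken as independent, and not between litters. LSBS titles begin with a number that recurs within and between ages, and the labels do not say what it means. The fits were tested on simulated data. Annotation was GENCODE vM1 with the NCBIM37 sequence.

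Named CpGs were all LSBS members, those in both assays, and the 2 largest RRBS gains and losses with complete values. Members and lists were chosen with earlier results of these data known. Alternatives were another scaling, a logit scale, fewer libraries, other variance models and left-out samples.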

Additional observations from a re-analysis of the deposited data

Results flagged for a closer look

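Each Peg3 CpG was searched, in each age group of 4 to 10 samples, for a highest or lowest value far from the others. The gap to the nearest value was divided by the whole range of the group. Of 108 groups 15 stood out (13.9%), where chance alone gives about 5%, and neighbouring CpGs share reads, so the groups are not independent.

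In RRBS at 9wk, replicate 9 was the highest at all 4 plus-strand cytosines of exon 1, each at 84.6%. The next values were 57.1% at 6682973 (gap ratio 0.616), 50% at 6682990 (0.675), 50% at 6683001 (0.75) and 51.3% at 6683011 (0.722). At 6682991 on the minus strand, replicate 6 was highest with 66.7% against 50% (0.538). At 6664185 in exon 9, 1 library with 93.3% stood below 6 at 100% (1). At P1 the lowest value of 6664197 was 64.3% against 84.6% (0.569), and at E18.5 the highest of 6683012 was 50% against 34% (0.941).

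In LSBS the highest 6mo value of 6682916 was 64.1% against 53.4% (0.778). At P1 the lowest values were 48.2% at 6682973 (0.842), 50.8% at 6683046 (0.713) and 48.7% at 6683052 (0.758). At P5 they were 50.7% at 6682990 (0.866) and 52.1% at 6683038 (0.861), and at P10 the highest of 6683046 was 60.7% (0.879).

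The change from E18.5 to 6mo differed between males and females at 7 of the 11 LSBS CpGs by the limma interaction. Without the highest 6mo value at each CpG it differed at 0.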

How the results depend on the processing

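The SD between replicates was 8.08 points for the RRBS mean change of 7.45 and 5.28 for the LSBS mean change of 5.13, so staying within that spread says nothing on the stability of either. After scaling the RRBS mean change was -0.472 points. No RRBS cytosine was called from E18.5 to P1 under any alternative run. The E18.5 to 9wk count of 8 became 5 on a logit scale, 1 after scaling to highly methylated CpGs, 3 for exon 1 alone and 5 with strands averaged. Leaving out 1 library gave 3 to 8 called and mean changes from 4.66 to 7.81 points. Leaving out any E18.5 library, or 9wk replicate 1, 2, 3, 5, 6, 7 or 9, gave 3 to 5, and then 11 of the 14 cytosines had enough values to be tested. The P1 to 9wk count of 1 became 2 on a logit scale and with a variance trend, and 0 after scaling, with first-deposit 9wk libraries, for exon 1 alone and at adjusted p up to 0.05. Without 1 library it was 0 to 1, and mean changes ran from 3.84 to 6.65 points, or from 0.792 to 2.85 for E18.5 to P1. A requirement of a value in every library left no member at 9wk.

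For LSBS, the E18.5 to 6mo count of 4 became 2 with only the 2 ages fitted, 1 by exact permutation, and, in alternatives added after the data were seen, 1 with males only at 6mo, 1 with males only at all ages and 2 without the highest 6mo value. The mean change of 5.13 points was then 1.38, 0.112 and 2.69. Leaving out 1 value per CpG in file order gave 2 to 9 called, with 2 without the second 6mo or the second E18.5 female value and 7 to 9 without a 6mo male or the first E18.5 male value, and mean changes from 3.65 to 6.28 points. For E18.5 to P10 it gave 7 to 10. The count of 0 over consecutive ages became 2 with only the 2 ages and by exact permutation, and 0 to 2 with 1 value left out. The sex count of 0 over all ages became 7 for the interaction and 10 for 6mo alone. No paired analysis was possible because an LSBS value is tied to an age and a sex but to no named liver, and RRBS titles of E18.5 share no number with those of P1 or 9wk, and P1 and 9wk share 1. The unknown depth limits what single values can show.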
